A study of Homo sapiens with 12 samples.

Results

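The genes described here are the hnRNP and SR splicing factors of HEK293T cells, a human embryonic kidney line. They were taken by symbol from the deposited count table: every HNRNP gene except HNRNPD, the older symbol HNRPDL, and every numbered SRSF gene, with a mean of at least 0.5 CPM (counts scaled to a common library size) over 12 libraries. The names matched 36 of 23615 rows, and 32 met the level, of which 20 were HNRNP genes and 12 SRSF genes. HNRPLL, another older hnRNP symbol, had 52.6 to 62.1 CPM but was outside this choice by name. It is counted below among hnRNP proteins with other symbols. All 32 members passed the filter on low counts. The lowest member, HNRNPA1L2, averaged 19.2 CPM, and the highest matched row left out, the pseudogene HNRNPA1P33, 0.155 CPM. HNRNPA3P1 averaged 0.112 CPM, and HNRNPCL1 and HNRNPKP3 had rounded counts of 0 in every library.

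Cells carried a lentiviral hairpin selected with puromycin, either against HuR (shHuR line) or a control sequence (shControl line). HuR, encoded by ELAVL1, is an RNA-binding protein that recognises AU-rich and U-rich stretches of mRNA. Each line was left untreated, given 25 µM of an alkyne form of 4-hydroxynonenal (HNE, a reactive aldehyde from lipid peroxidation) or given 225 µM hydrogen peroxide (H2O2), for 18 h. Each of these 6 groups held 2 biological replicates, and total RNA was sequenced after removal of ribosomal RNA. All groups share the same parental cells, medium and selection, and each line is the population of a single hairpin, so hairpin and line cannot be told apart.

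SR proteins carry an RNA-recognition domain and a tail rich in arginine and serine, and they classically bind exonic enhancers and recruit the splicing machinery. The hnRNPs coat nascent transcripts, often repress nearby splice sites, and also act in mRNA export, translation and decay. Genes of both families are known to tune their own levels through exons or introns whose inclusion sends the transcript to nonsense-mediated decay (NMD). A gene-level count adds up all such forms, so it does not tell productive from unproductive transcripts. In bulk RNA a change in each cell and a change in the share of cells holding the RNA cannot be told apart.

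Total counts per library ran from 24855946 to 29907256. ELAVL1 was 86.0 to 99.4 CPM in the 6 shControl libraries and 69.3 to 74.5 CPM in the 6 shHuR libraries, or -0.38 on the log2 scale (SE 0.0405, adjusted p = 2.60e-06 in edgeR). Of 5 markers chosen for HEK293T cells, VIM, CDH2, INA and NEFM were present (VIM lower, INA and NEFM higher in shHuR), while PAX2 stayed between 0.144 and 0.491 CPM. The 7 markers of blood, liver, epithelial, muscle, fibroblast and endothelial cells had at most 0.455 CPM in any library. Replicate 2 of the HNE-treated shControl group held the largest share of counts in small nucleolar RNA genes, 1.13% against 0.582% in the lowest library. The 2 replicates of that group also differed most from each other, with a chi-square per degree of freedom of 21.5 against 2.93 to 10.4 in the other groups.

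Of the 32 members, HNRNPAB, SRSF5 and SRSF8 were the 3 that passed the test between the lines in all 3 treatments. The share of all genes that did so was not counted, and these calls rested on few libraries, as given below. The RNA of SRSF5 was lower and that of the other 2 higher in shHuR cells. Their promoters are printed for reference, and whether promoter activity differed between the lines was not tested. The sequences are RefSeq's windows from 250 bases before to 50 after the gene start on GRCh38.p14, all on the plus strand. HNRNPAB lies at chr5:178204283-178204582, SRSF5 at chr14:69766892-69767191 and SRSF8 at chr11:95066627-95066926. Capitals mark 3 motifs on either strand: CCAAT, the box bound by NF-Y; GGGCGG, the core bound by Sp1; and CCGGAAG, a core bound by ETS factors.
HNRNPAB promoter: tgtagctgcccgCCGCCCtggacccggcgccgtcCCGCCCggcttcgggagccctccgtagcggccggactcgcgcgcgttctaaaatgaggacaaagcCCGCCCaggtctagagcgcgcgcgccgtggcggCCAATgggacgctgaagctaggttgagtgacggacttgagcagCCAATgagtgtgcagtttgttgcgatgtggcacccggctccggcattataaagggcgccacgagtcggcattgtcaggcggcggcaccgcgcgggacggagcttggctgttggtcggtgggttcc
SRSF5 promoter: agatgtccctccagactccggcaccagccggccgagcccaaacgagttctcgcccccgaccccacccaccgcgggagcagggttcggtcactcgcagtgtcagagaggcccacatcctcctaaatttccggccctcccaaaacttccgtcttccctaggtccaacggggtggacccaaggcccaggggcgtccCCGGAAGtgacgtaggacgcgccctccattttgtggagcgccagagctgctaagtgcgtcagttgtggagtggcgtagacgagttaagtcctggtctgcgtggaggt
SRSF8 promoter: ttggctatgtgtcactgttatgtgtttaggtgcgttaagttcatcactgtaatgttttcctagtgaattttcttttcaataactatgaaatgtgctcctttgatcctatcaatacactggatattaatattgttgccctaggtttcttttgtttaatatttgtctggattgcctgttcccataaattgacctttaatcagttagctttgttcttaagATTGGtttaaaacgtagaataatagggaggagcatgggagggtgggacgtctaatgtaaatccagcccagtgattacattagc
The HNRNPAB window had 67.3% G and C, with 2 CCAAT and 3 GGGCGG matches. The SRSF5 window had 63.3% G and C and 1 CCGGAAG match, and the SRSF8 window 36.0% and 1 CCAAT match. None of the 3 motifs was found in all 3 windows. RefSeq windows were matched for 29 of the 32 members, all but HNRNPA1, HNRNPA1P10 and SRSF2. CCAAT was present in 12 of 18 HNRNP windows (66.7%), 2 of 11 SRSF windows (18.2%) and 35.7% of all 27305 promoters. GGGCGG was present in 14 of 18 HNRNP windows (77.8%), 5 of 11 SRSF windows (45.5%) and 44.6% of all promoters. CCGGAAG was present in 1 of 18 (5.56%), 2 of 11 (18.2%) and 10.7%, respectively. The E-box CACGTG was present in 6 of 18 HNRNP windows (33.3%), 0 of 11 SRSF windows and 7.43% of all promoters. TATAAA (the TATA box) was found in 11.1%, 18.2% and 12.0% of these windows, and TGACNNNGC in 16.7%, 18.2% and 13.6%. These are matches of letters on both strands and were not tested. No marked motifs overlapped each other in the printed sequences.

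Per gene length, in the authors' FPKM averaged over the 12 libraries, HNRNPA1 was highest at 957 ± 93.0 (SD, n = 12), followed by its processed pseudogene HNRNPA1P10 at 611 ± 93.6, HNRNPH1 at 581 ± 29.7 and HNRNPC at 450 ± 26.0. Counts of HNRNPA1 and HNRNPA1P10 were fractional in 11 of 12 libraries each. How reads shared by these 2 were assigned is not given in the sources used here, so their places in this order are uncertain. HNRNPC and HNRNPK (436 ± 21.4) lay within their spread of each other. HNRNPC binds U-rich tracts, and HNRNPK binds C-rich ones. The highest SR gene was SRSF3 at 282 ± 25.4 FPKM, then SRSF9 at 253 ± 24.6, SRSF1 at 210 ± 10.8 and SRSF5 at 206 ± 30.4. Over the 12 libraries SRSF1 and SRSF5 lay within their pooled spread, which for SRSF5 includes its difference between the lines. SRSF5 was above SRSF1 in every shControl library and below it in every shHuR library. The lowest SR genes were SRSF8 at 11.1 ± 1.97 and SRSF12 at 5.67 ± 0.540 FPKM. HNRNPA1L2, a relative of HNRNPA1, had 9.01 ± 0.606 FPKM.

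Most members held a steady level. Across the 12 libraries the coefficient of variation of CPM ran from 3.65% (HNRNPU) to 15.5% (HNRNPA1P10) in the HNRNP family, with a median of 7.71%, and from 4.42% (SRSF4) to 17.6% (SRSF8) in the SRSF family, with a median of 6.62%. HNRNPU, a nuclear scaffold protein and the most counted member, stayed between 1966 and 2209 CPM. HNRNPL, which binds CA repeats, stayed between 483 and 548 CPM, and SRSF1, the prototype SR protein, between 998 and 1193 CPM. The members at the upper end were HNRNPH2 and HNRNPA1P10, whose counts were fractional, and SRSF8 and SRSF5, which differed between the lines.

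Family totals barely moved. The HNRNP members summed to 13655 ± 529 CPM in the 6 shControl libraries and to 13356 ± 405 CPM in the 6 shHuR libraries (SD). The SRSF members summed to 4577 ± 198 and 4501 ± 152 CPM. Both differences were smaller than the spread within a line. The ratio of the SRSF to the HNRNP sum was 0.335 ± 0.0112 in shControl and 0.337 ± 0.00509 in shHuR. Untreated shControl replicates had ratios of 0.330 and 0.323, HNE-treated ones 0.346 and 0.349, and H2O2-treated ones 0.340 and 0.325. In shHuR the ratios were 0.338 and 0.329 untreated, 0.344 and 0.340 with HNE, and 0.335 and 0.336 with H2O2. The HNE-treated libraries lay above the untreated ones in both lines, with the nearest libraries of shHuR at 0.338 and 0.340. Without HNRNPA1P10, whose counts were fractional, the shHuR libraries overlapped, at 0.361 and 0.357 with HNE and 0.358 and 0.347 untreated. The shControl libraries still stood apart, at 0.364 and 0.376 with HNE and 0.348 and 0.341 untreated. These totals are a description, with no test.

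**Figure D1:**
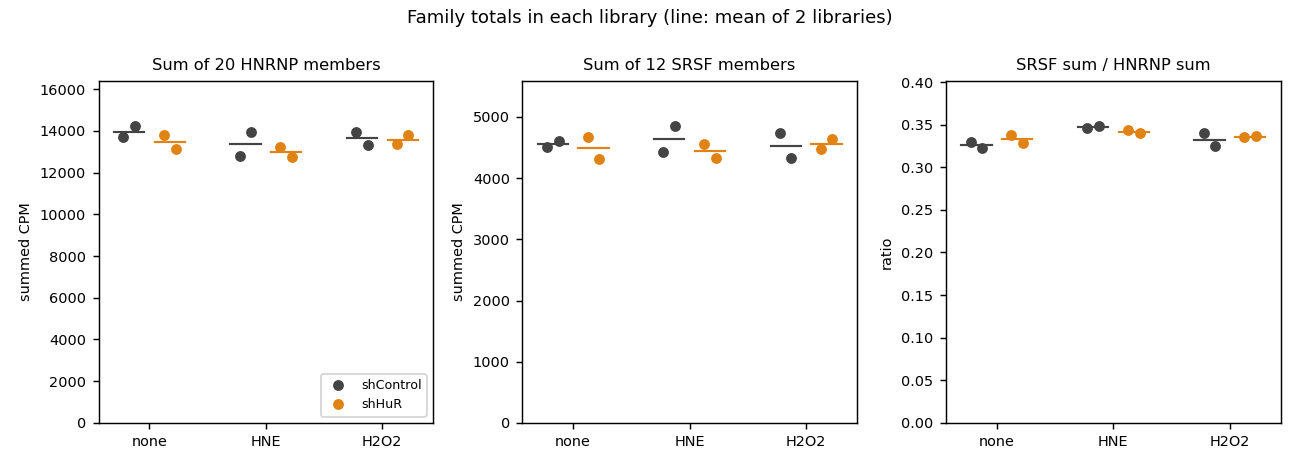
Summed CPM of the 20 HNRNP members (left) and of the 12 SRSF members (middle), and the ratio of the SRSF to the HNRNP sum (right), by treatment. Each point is a library, short lines are means of 2 libraries, grey is shControl and orange is shHuR. Sums ran from 12765 to 14254 CPM for HNRNP and from 4316 to 4858 CPM for SRSF, and the lines overlap in all 3 panels.

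Single members did differ between the lines. Over all treatments 10 of the 32 passed edgeR's quasi-likelihood test at an adjusted p under 0.05, that is 31.2%, against 29.9% of all 16005 genes tested, so the share was near the background. With library size alone in place of TMM, 2604 genes were higher and 2161 lower in shHuR, against 2249 and 2538 here. By family, 5 of 20 HNRNP genes (25.0%) and 5 of 12 SRSF genes (41.7%) passed, and the difference between the families was not tested. HNRNPA0, HNRNPAB, HNRNPH3, HNRNPM, SRSF2, SRSF6 and SRSF8 were higher in shHuR cells (7 members, with a background of 14.1%), and HNRNPA1, SRSF5 and SRSF11 were lower (3 members, with a background of 15.9%). The differences were modest, from 0.10 (SRSF11) to 0.46 (SRSF8) in absolute log2 fold change. The median absolute log2 fold change was 0.23 over the 10 members and 0.28 over all genes that passed. The median log2 fold change was -0.01 over the 20 HNRNP and -0.03 over the 12 SRSF genes, against 0.00 over all genes tested.

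**Figure D2:**
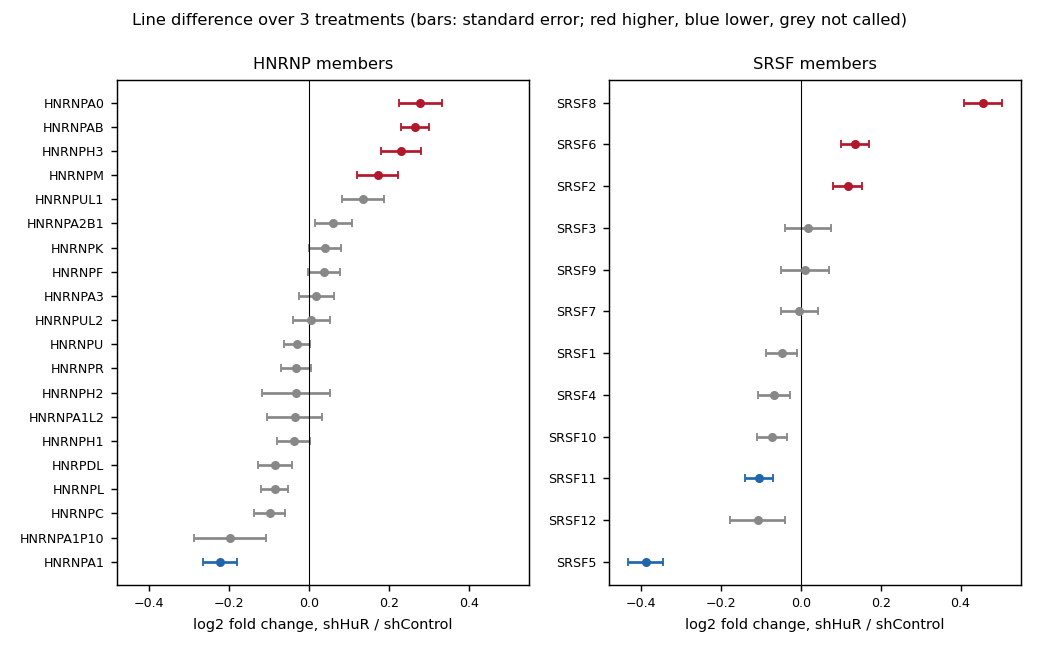
Log2 fold change of shHuR over shControl across the 3 treatments for the 20 HNRNP (left) and the 12 SRSF members (right), with bars for the standard error. Red points passed as higher, blue points as lower and grey points did not pass; SRSF8 at 0.46 and SRSF5 at -0.39 stand at the ends, and both families lie on either side of 0.

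SRSF8 is a close relative of SRSF2. The untreated shControl libraries held 40.7 and 41.9 CPM, the HNE-treated ones 39.6 and 35.5, and the H2O2-treated ones 39.0 and 40.1. The untreated shHuR libraries held 54.7 and 52.5 CPM, the HNE-treated ones 50.5 and 50.4, and the H2O2-treated ones 58.6 and 58.7. Every shHuR library was above every shControl library. The shHuR mean of 54.2 ± 3.76 CPM stood against 39.5 ± 2.19 CPM (SD, n = 6 each), which is 37.2% higher in the fit (log2 0.46, SE 0.0473, adjusted p = 2.10e-06). How reads shared with SRSF2 were assigned is not given in the sources used here.

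SRSF5 (SRp40) went the other way. The shControl pairs stood at 319 and 322 CPM untreated, 296 and 336 after HNE, and 331 and 291 after H2O2. The shHuR pairs stood at 252 and 227 CPM untreated, 250 and 237 after HNE, and 237 and 244 after H2O2. The 2 lines did not overlap. The level fell by 23.6% in the fit (log2 -0.39, SE 0.0449, adjusted p = 6.58e-06), with means of 316 ± 18.5 CPM in shControl and 241 ± 9.61 CPM in shHuR (SD, 6 libraries each). In size this is near the fall of ELAVL1 itself, 23.3% in the same fit.

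HNRNPAB, an A/B-type hnRNP that binds single-stranded RNA and DNA, was the HNRNP member whose lines did not overlap. Its shControl pairs stood at 332 and 339 CPM untreated, 327 and 360 after HNE, and 341 and 351 after H2O2. Its shHuR pairs stood at 406 and 407 CPM untreated, 397 and 406 after HNE, and 427 and 423 after H2O2. The level was 20.2% higher in the fit (log2 0.27, SE 0.0355, adjusted p = 2.99e-05). SRSF11 was the fourth member without overlap, at 314 to 344 CPM in shControl and 294 to 311 CPM in shHuR libraries (log2 fold change -0.10, SE 0.0350, adjusted p = 0.0316). Lines did not overlap for these 4 of 32 members, against 12.1% of all genes tested. SRSF11 lost its call in 11 of 21 alternative fits, among them library size alone (adjusted p = 0.0734).

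HNRNPA0 encodes a binder of AU-rich mRNA elements. Its shControl libraries ranged from 115 CPM to 148 CPM with a mean of 130 ± 10.7 CPM, and its shHuR libraries from 147 to 168 CPM with a mean of 157 ± 8.82 CPM (SD over 6 libraries). The lines overlapped through replicate 2 of the HNE-treated shControl group. The level was 21.3% higher in the fit (log2 0.28, SE 0.0548, adjusted p = 0.000979).

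HNRNPA1, the abundant exon-silencing hnRNP, was the HNRNP gene that fell. Its shControl pairs stood at 1694 and 1718 CPM untreated, 1543 and 1743 after HNE, and 1713 and 1586 after H2O2. Its shHuR pairs stood at 1615 and 1430 CPM untreated, 1411 and 1305 after HNE, and 1374 and 1444 after H2O2. The lines overlapped only through replicate 1 of the untreated shHuR group. The level fell by 14.3% in the fit (log2 -0.22, SE 0.0427, adjusted p = 0.000821). Its counts were fractional in 11 of 12 libraries, and the GENCODE release 29 annotation holds 75 pseudogenes named after it, so its level is uncertain. HNRNPA1P10, also fractional, had a log2 fold change of -0.20 (adjusted p = 0.110). It was -0.07 without replicate 2 of HNE-treated shControl, and it was called without replicate 1 of that group (-0.25, adjusted p = 0.0242) and with no filter on low counts (adjusted p = 5.49e-05).

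HNRNPH3 and HNRNPM, both RNA-binding regulators of exon inclusion, were higher. HNRNPH3 averaged 170.4 ± 17.6 CPM in shControl and 199.5 ± 11.4 CPM in shHuR, SD over 6 libraries each (log2 fold change 0.23, SE 0.0492, adjusted p = 0.00192). HNRNPM averaged 339 ± 29.4 and 382 ± 13.3 CPM (log2 fold change 0.17, SE 0.0514, adjusted p = 0.0179). Its lines overlapped only through replicate 2 of the HNE-treated shControl group, at 381 CPM.

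SRSF6 (SRp55) averaged 369 ± 9.01 CPM in shControl and 405 ± 13.4 CPM in shHuR, SD over 6 libraries each (log2 fold change 0.14, SE 0.0359, adjusted p = 0.00862). SRSF2 (SC35) averaged 303 ± 14.4 and 329 ± 22.9 CPM (log2 fold change 0.12, SE 0.0372, adjusted p = 0.0244). SRSF2 lost its call in 4 of the fits that left out a library, with adjusted p up to 0.0720.

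**Figure D3:**
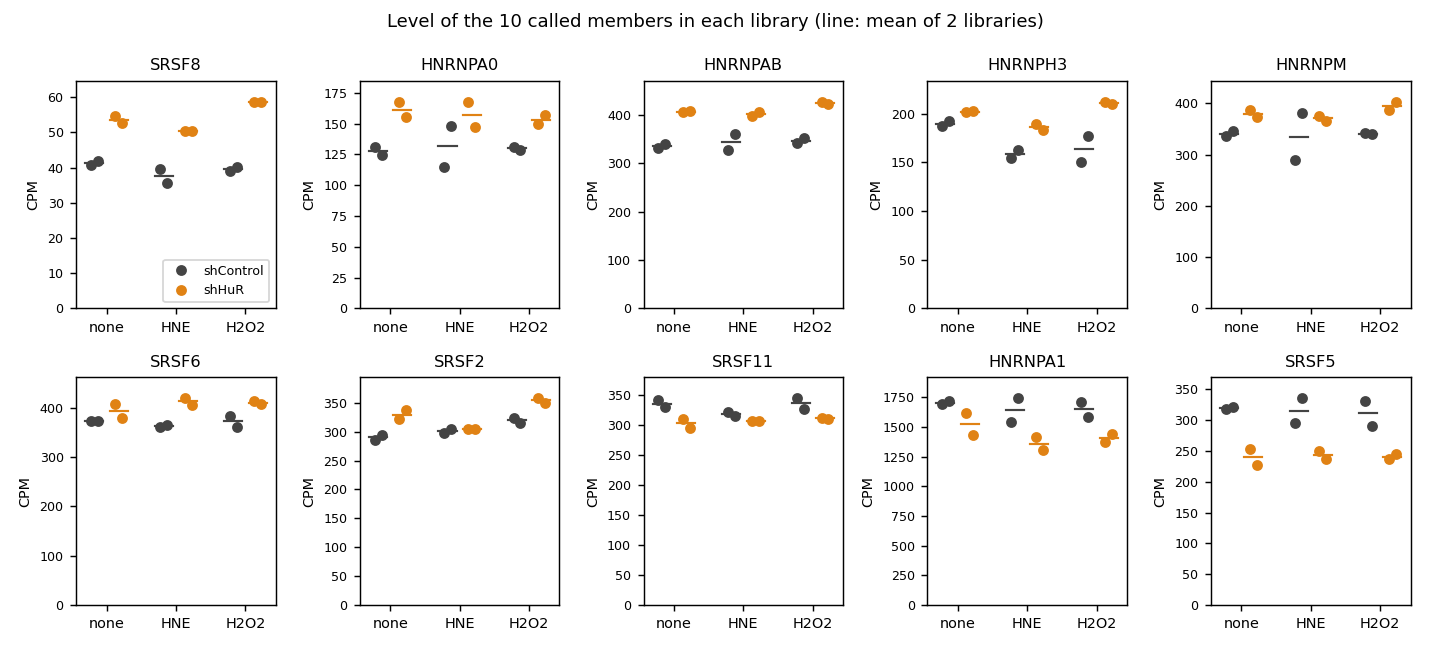
CPM of the 10 members that passed between the lines, by treatment, ordered from the highest to the lowest log2 fold change. Each point is a library, short lines are means of 2 libraries, grey is shControl and orange is shHuR, and every axis starts at 0. The orange points lie above the grey ones for SRSF8 and HNRNPAB and below them for SRSF5 and SRSF11, with some overlap in the other 6.

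The other 15 HNRNP and 7 SRSF genes did not pass. Their log2 fold changes ran from -0.20 to 0.13 (adjusted p from 0.0574 to 0.938) and from -0.11 to 0.02 (adjusted p from 0.161 to 0.959). HNRNPUL1 (0.13, adjusted p = 0.0574), HNRNPL (-0.09, adjusted p = 0.0656) and HNRNPC (-0.10, adjusted p = 0.0683) came nearest. HNRNPUL1 was called in 6 of 21 alternatives, among them DESeq2 (adjusted p = 0.0330) and median-ratio scaling (adjusted p = 0.0493). DESeq2 also called HNRNPL (adjusted p = 0.0352). HNRNPC was called without replicate 2 of H2O2-treated shControl (adjusted p = 0.0305) or replicate 1 of untreated shHuR (adjusted p = 0.0382). SRSF1, SRSF3, SRSF4, SRSF7, SRSF9, SRSF10 and SRSF12 did not pass, and neither did HNRNPA2B1, HNRNPA3, HNRNPA1L2, HNRNPA1P10, HNRNPF, HNRNPH1, HNRNPH2, HNRNPK, HNRNPR, HNRNPU, HNRNPUL2 or HNRPDL. Standard errors of these genes were 0.0328 to 0.0905, so small differences are not excluded by the test.

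Within single treatments fewer members passed. In untreated cells 3 of 32 did (9.38%, against 7.98% of all genes tested): HNRNPAB (log2 fold change 0.28, adjusted p = 0.0165) and SRSF8 (0.37, adjusted p = 0.0101) were higher and SRSF5 (-0.42, adjusted p = 0.00798) lower. With HNE 4 passed (12.5%, against 8.27%). HNRNPAB (0.22, adjusted p = 0.0423) and SRSF8 (0.42, adjusted p = 0.00501) were higher, and HNRNPA1 (-0.27, adjusted p = 0.0429) and SRSF5 (-0.38, adjusted p = 0.0140) lower. Fitted on the 4 HNE libraries alone, none of these passed, with adjusted p from 0.0731 to 0.177. That fit also called fewer of all genes, 63 higher and 141 lower, against 518 and 806. The HNRNPA1 call was also lost with the replicate number as a block (adjusted p = 0.0608).

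With H2O2 4 members passed (12.5%, against 7.19%). HNRNPAB (0.29, adjusted p = 0.0117), SRSF8 (0.57, adjusted p = 0.000758) and HNRNPH3 (0.37, adjusted p = 0.00921) were higher and SRSF5 (-0.37, adjusted p = 0.0146) lower. HNRNPH3 stood at 150 and 176 CPM in the shControl and 212 and 210 CPM in the shHuR libraries there. The 3 comparisons contrast different libraries, but they come from 1 fit with a spread estimated over all 12 libraries, so the tests are not independent. Of the 32 members 8 (25.0%) were positive and 10 (31.2%) negative in all 3, against 27.9% and 29.3% of all genes. None of the 3 tests called 27 members (84.4%), against 85.8% of all genes.

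These calls rested on few libraries. With a library left out, every call within a treatment except that of SRSF8 with H2O2 was lost in some fits. Other members gained calls, untreated and with H2O2, when an HNE-treated shControl library was left out. The shares of all genes called in those fits are not given here, so these changes have no background beside them. Untreated log2 fold changes ran from 0.26 to 0.29 for HNRNPAB, 0.35 to 0.40 for SRSF8 and -0.49 to -0.34 for SRSF5. With HNE, HNRNPAB ran from 0.17 to 0.29 and SRSF8 from 0.35 to 0.52. HNRNPA1 ran from -0.35 to -0.18 and SRSF5 from -0.45 to -0.28 there. With H2O2, HNRNPAB ran from 0.28 to 0.32 and SRSF8 from 0.55 to 0.59. HNRNPH3 ran from 0.26 to 0.49 and SRSF5 from -0.46 to -0.27 there.

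**Figure D4:**
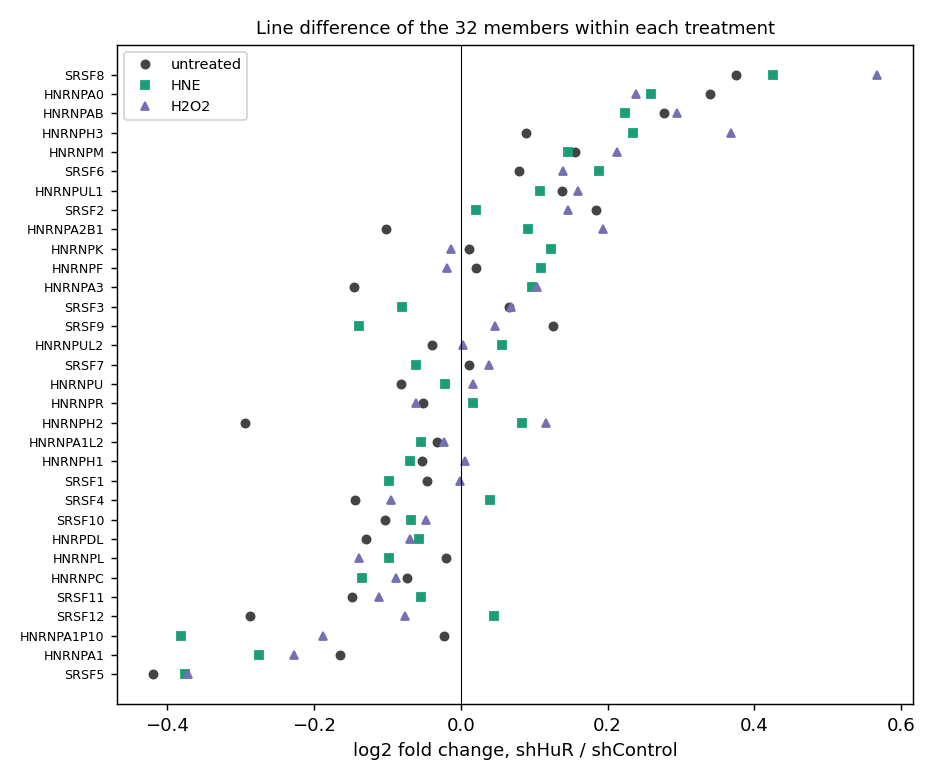
Log2 fold change of shHuR over shControl within each treatment for the 32 members, ordered by the value over all treatments. Circles are untreated, squares HNE and triangles H2O2, with 2 libraries a group. SRSF8, HNRNPA0 and HNRNPAB lie to the right and SRSF5 and HNRNPA1 to the left in all 3, while HNRNPH2, HNRNPA2B1 and SRSF12 change side.

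The next question was whether either stressor moved these genes. With both lines together HNE gave no called member in edgeR's test (0 of 32, against 0.247% of all 15780 genes tested), with 4 members (12.5%) at an unadjusted p under 0.05, all lower, against 12.3% of all genes. DESeq2 called 2, HNRNPA2B1 (adjusted p = 0.0205) and HNRNPH3 (adjusted p = 0.0497), and both limma fits on FPKM called 0. Over all genes DESeq2 called 79 higher and 95 lower, against 16 and 23 in edgeR. The limma fit on log2(FPKM + 1) called 2 and 0, and that on log2(FPKM + 0.1) 2 and 2. HNRNPA2B1, known for RNA transport and for reading methylated RNA, had 1359 and 1468 CPM in untreated and 1114 and 1167 CPM in HNE-treated shControl cells. In shHuR cells it had 1288 and 1345 CPM untreated and 1232 and 1198 CPM with HNE. All 4 treated libraries were below the 4 untreated ones (log2 -0.21, SE 0.0537, adjusted p = 0.151). HNRNPH3 had a log2 fold change of -0.19 (SE 0.0522, adjusted p = 0.186), with overlap.

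HNRNPUL2 (-0.23, adjusted p = 0.190) and HNRNPUL1 (-0.16, adjusted p = 0.318) were the other 2 with an unadjusted p under 0.05. Treated and untreated libraries did not overlap for HNRNPA2B1, HNRNPUL1 and HNRNPUL2, all lower with HNE, against 2.35% of all genes on that side. HNRNPUL2 counts were fractional, and the annotated readthrough gene HNRNPUL2-BSCL2 overlaps it on the same strand. HNRNPA1P10 (-0.03, adjusted p = 0.947) was called as lower (-0.23, adjusted p = 0.0247) when replicate 2 of HNE-treated shControl cells was left out.

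With H2O2 edgeR called 0 of 32 members (background 0% of 15801 genes), with 2 (6.25%, against 5.45% of all genes) at an unadjusted p under 0.05, and DESeq2 and both limma fits also called 0. HNRNPH2, the X-linked relative of HNRNPH1, stood lowest (log2 -0.35, SE 0.0998, adjusted p = 0.900). Its untreated shControl libraries stood at 80.3 and 85.3 CPM and its H2O2-treated ones at 63.0 and 49.8 CPM. In shHuR it had 74.8 and 60.4 CPM untreated and 55.4 and 66.8 CPM with H2O2, with overlap. HNRNPH2 was called without a filter on low counts (adjusted p = 1.88e-06). Its counts were fractional in all 12 libraries, and a readthrough transcript with RPL36A covers it. SRSF2 had a log2 fold change of 0.12 (SE 0.0412, adjusted p = 0.900).

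**Figure D5:**
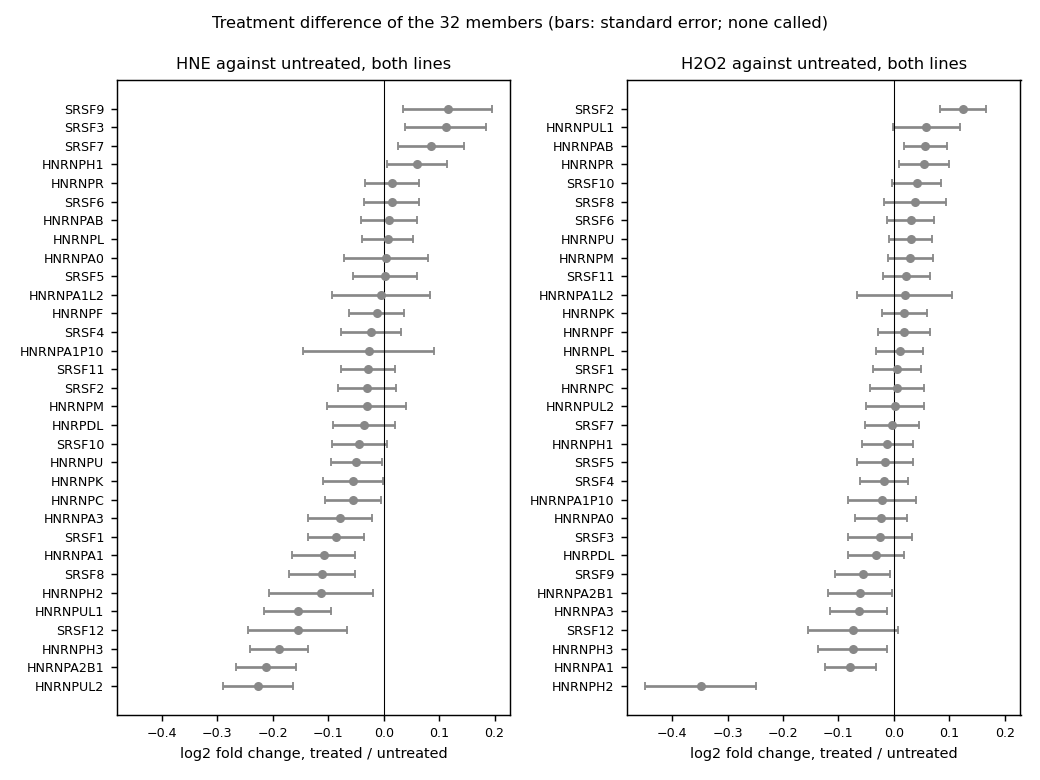
Log2 fold change of HNE (left) and H2O2 (right) over untreated cells with both lines together for the 32 members, with bars for the standard error. All points are grey because none passed; HNRNPUL2, HNRNPA2B1 and HNRNPH3 are lowest with HNE and HNRNPH2 with H2O2.

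Within shControl edgeR called 0 members for HNE (background 0.0187%), with 7 (21.9%) at an unadjusted p under 0.05 against 11.7% of all genes. DESeq2 called 41 genes higher and 32 lower in this line, with 1 member among them, HNRNPA2B1. There HNRNPA2B1 stood at -0.31 on the log2 scale (SE 0.0644, adjusted p = 0.161 in edgeR and 0.00233 in DESeq2) and HNRNPH3 at -0.26 (SE 0.0745, adjusted p = 0.240). Within shHuR edgeR called 0 for HNE (background 0.075%), with 1 (3.12%, against 8.95% of all genes) at an unadjusted p under 0.05, HNRNPUL2 (-0.18, adjusted p = 0.545), and DESeq2 called 0. HNRNPA1 came next there (-0.16, adjusted p = 0.561). For H2O2 edgeR called 0 members in either line (background 0% in each), with 5 in shControl (15.6%, against 4.34% of all genes) and 0 in shHuR (against 3.37%) at an unadjusted p under 0.05. DESeq2 called 0 in both. The lowest unadjusted p belonged to HNRNPH2 (-0.56, adjusted p = 0.998) and HNRNPA2B1 (-0.21, adjusted p = 0.998) in shControl, and to SRSF2 (0.10) and SRSF8 (0.13) in shHuR (adjusted p = 1.00 for both). HNE and H2O2 values within a line share the untreated libraries. Leaving out replicate 1 of the HNE-treated shControl pair leaves 1 library in that group. The HNE log2 fold changes in shControl were then -0.28 for HNRNPA2B1, 0.46 for HNRNPA1P10 and 0.42 for SRSF9. With all libraries they were -0.31, 0.15 and 0.25, respectively.

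Whether the lines responded differently was tested with an interaction term. For HNE edgeR called 0 of 32 members (background 0%), with 1 (3.12%, against 6.73% of all genes) at an unadjusted p under 0.05, and DESeq2 called 0. HNRNPA3, a close relative of HNRNPA2B1, had the lowest unadjusted p, with an interaction of 0.24 (SE 0.0852, unadjusted p = 0.0126, adjusted p = 0.712), followed by SRSF12 (0.33, SE 0.155, adjusted p = 0.732). The interaction of HNRNPA1P10 was -0.36 (SE 0.225, adjusted p = 0.768), and -0.66 (adjusted p = 0.0481) when replicate 1 of HNE-treated shControl cells was left out. For H2O2 edgeR called 0 (background 0%), with 4 (12.5%, against 3.62% of all genes) at an unadjusted p under 0.05, all positive: HNRNPA2B1 (0.30), HNRNPA3 (0.25), HNRNPH3 (0.28) and HNRNPH2 (0.41), each with an adjusted p of 1.00. DESeq2 called 0. HNRNPA3 had 548 and 578 CPM in untreated shControl cells and 480 to 499 CPM in the 4 treated ones, while its 6 shHuR libraries lay between 508 and 541 CPM.

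Other genes of the pathway were read from lists of proteins named otherwise. Among 11 hnRNP proteins with other symbols, 7 were higher and 0 lower in shHuR over all treatments (backgrounds 14.1% and 15.9%), with a median log2 fold change of 0.15. KHSRP, a decay-promoting binder of AU-rich elements, rose most (143 to 209 CPM, 0.55, adjusted p = 9.10e-06). PCBP1, a poly(C)-binding protein, changed by 0.37 (adjusted p = 0.000751) and PTBP3, a relative of the polypyrimidine tract binder, by 0.28 (adjusted p = 0.00552). Over the alternatives 6 to 8 of these genes were higher and 0 or 1 lower. These lists were chosen with earlier results of the data known, and no set test was run.

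Of 9 kinases acting on SR proteins or the spliceosome, 2 were higher and 1 lower (33.3% in all, against 29.9% of all genes). The 2 became 1 with limma, and the 1 became 2 when replicate 2 of untreated shControl, HNE-treated shControl or untreated shHuR was left out. PRPF4B (0.32, adjusted p = 6.67e-05) and CLK1 (0.20, adjusted p = 0.00321) rose, and CLK2 fell (-0.34, adjusted p = 7.44e-05). SRPK1, SRPK2, SRPK3, CLK3, CLK4 and DYRK1A did not pass. Of 30 SR-related proteins tested, 3 were higher and 4 lower (23.3% in all, under the 29.9% of all genes). The 3 became 6 with no filter on low counts, 5 without replicate 2 of H2O2-treated shControl or replicate 1 of untreated shHuR, and 2 without replicate 2 of H2O2-treated shHuR. U2AF2, which binds the polypyrimidine tract (0.22, adjusted p = 0.000894), SON (0.21, adjusted p = 0.00164) and LUC7L2 (0.16, adjusted p = 0.0153) rose. LUC7L3 (-0.37, adjusted p = 6.59e-05), the cyclin CCNL2 (-0.36, adjusted p = 1.32e-05) and PPIG (-0.22, adjusted p = 0.00547) had the largest falls.

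Core spliceosome subunits passed in 9 of 29 cases (31.0%, against 29.9% of all genes), 8 higher and 1 lower. SF3B4 (0.37, adjusted p = 0.0130), SNRPG (0.30, adjusted p = 0.000377) and PRPF8 (0.24, adjusted p = 0.00128) had the largest rises, and SF3A2 fell (-0.29, adjusted p = 0.0204). Over the alternatives 7 to 13 were higher and 0 or 1 lower, with 12 higher for library size alone and 7 with the replicate block. The fall of SF3A2 was not called without replicate 1 of untreated shControl, untreated shHuR or HNE-treated shHuR. Of 6 import receptors and arginine methyltransferases 2 passed (33.3%). PRMT1, which methylates hnRNP proteins, rose (0.16, adjusted p = 0.0113), and TNPO1, the import receptor of HNRNPA1, fell (-0.19, adjusted p = 0.00139).

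Annotation set the families apart in a way the choice by name did not use. In GENCODE release 29 all 12 SRSF genes (100%) have at least 1 transcript annotated for NMD, as do 11 of the 19 protein-coding HNRNP members (57.9%) and 35.7% of 18039 protein-coding genes of the table. A transcript annotated as a retained intron exists for 9 SRSF genes (75.0%), 12 HNRNP genes (63.2%) and 48.1% of the protein-coding genes. The SRSF genes have a median of 8.5 annotated transcripts, the HNRNP genes 11 and all protein-coding genes 6. Well-studied and highly expressed genes have more annotated forms, and this was not matched for. The 32 members lie on 16 chromosomes.

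The same annotation shows where counts may be shared. An annotated gene on the opposite strand overlaps 13 members, another gene on the same strand overlaps 10, and 16 have pseudogenes named after them. Among the called members these are HNRNPA1 (75 pseudogenes and AC078778.2 on the same strand), HNRNPAB (opposite PHYKPL), HNRNPH3 (opposite PBLD and RUFY2), HNRNPM, SRSF2 (opposite MFSD11) and SRSF11. SRSF5, SRSF6, SRSF8 and HNRNPA0 have no such overlap and no pseudogene named after them. Whether counting used strand is not given in the sources used here, so reads of opposite genes may have been mixed.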

How the data were processed

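Gene expression was measured by RNA sequencing of 12 libraries, 2 for each of 6 groups. The authors deposited estimated counts per gene symbol and FPKM values. The submitters' processing notes name cutadapt 1.8, Bowtie2 2.2, TopHat2 2.1, Cufflinks 2.2, Cuffnorm and Cuffdiff and the builds GRCh37 and hg19, and the annotation and strand setting are not given in the sources used here. Among the count values as deposited, 2.25% (in 701 genes) were fractional and were rounded to whole numbers. The FPKM values were scaled by the authors to gene length and library size.

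Genes were filtered with filterByExpr (minimum count 10, 16005 of 23615 kept), scaled with TMM (factors 0.965 to 1.03) and tested with edgeR 4.0.16 quasi-likelihood F-tests with Benjamini-Hochberg adjustment over all genes at 0.05. The averaged line effect used 12 libraries with treatment as a covariate, the averaged treatment effects 8 libraries with line as a covariate, and the others 6 group means (6 residual degrees of freedom). CPM used TMM-scaled library sizes. The standard error was the log2 fold change divided by the square root of F.

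Alternatives were DESeq2 1.42.0, other scalings and filters, limma 3.58.1 on log2(FPKM + 1) and log2(FPKM + 0.1) where the mean FPKM reached 1, a block for the replicate number, only the libraries compared, and leaving out each library. The pseudocount shrinks limma fold changes of low genes. Tests were checked on simulated data with planted log2 changes of 0.5 and 1 in absolute size. At 0.5, edgeR recovered 96% for the averaged line effect, 67% for the untreated line effect and 87% for the averaged HNE effect. Smaller changes, such as those of the members called over all treatments, were not simulated. Members, lists and tests were chosen with earlier results of these data known. Named were all called members and, where none was called, the 2 with the lowest unadjusted p; from each other list at most 3 rises and 3 falls. Annotation came from GENCODE release 29 (GRCh38), to which all 32 members matched, HNRPDL as HNRNPDL. It is not the build named by the submitters, so it was used for overlaps, transcript types and chromosomes, and printed coordinates are those of the RefSeq promoter windows on GRCh38.p14.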

Additional observations from a re-analysis of the deposited data

Results flagged for a closer look

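In 3 cases a library stood apart from the other 5 of its line by Dixon's gap test, among 64 sets of 6 libraries from 32 members. Chance gives about 1 in 20, and the 6 libraries span 3 treatments. SRSF9 had 315 CPM in replicate 2 of the HNE-treated shControl group, against 242 CPM in the next library (gap 0.765 of the range). SRSF3 (1036 CPM) and HNRNPA1P10 (1013 CPM) also had their highest values there. Replicate 2 of the untreated shHuR group had the lowest shHuR level of SRSF6, 380 CPM against 406 CPM (gap 0.666), and of SRSF11, 294 CPM against 305 CPM (gap 0.658). No member passed the test of a different response between the lines.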

How the results depend on the processing

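Alternatives were compared for 59 chosen values of single members. Between the lines these were every member over all treatments, but within single treatments only members already called. For the stressors and the interaction they were the members with the lowest unadjusted p. Of 1215 comparisons of these values with an alternative, 1104 kept direction and side of the threshold, 61 lost a call, 20 gained one and 30 reversed. Calls gained by other members are not among the 20, so these totals do not measure stability over all members and comparisons. The number of members called between the lines over all treatments was 10, 9 to 12 under other tools, scalings and filters, 8 to 11 with a library left out, and 11 without both HNE-treated shControl libraries, an alternative chosen after seeing the data. Of the 10, only SRSF11 and SRSF2 lost their calls under any alternative. The untreated count of 3 became 5 with DESeq2, 5 with no filter on low counts and 0 to 5 with a library left out. The HNE count of 4 became 7 with no filter, 0 with only the 4 libraries compared and 0 to 6 with a library left out. The H2O2 count of 4 became 8 with no filter and 1 to 8 with a library left out. The counts of 0 for HNE over both lines became 2 with DESeq2, 1 with no filter and 0 to 1 with a library left out. For HNE in shControl they became 1 with DESeq2, 1 with no filter and 0 to 3 with a library left out. For H2O2 over both lines and for H2O2 in shControl each became 1 with no filter, and for the HNE interaction 0 to 1 with a library left out. The setting with no filter also called more of all genes. For HNE over both lines it called 163 higher and 171 lower, against 16 and 23. For H2O2 over both lines it called 20 and 97, against 0 and 0. Between the lines with H2O2 it called 784 and 1018, against 404 and 747. The causes were not tested.

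All reversals counted above were of uncalled log2 fold changes between the lines over all treatments. Without both HNE-treated shControl libraries they were -0.0198 for HNRNPA3, -0.0163 for HNRNPUL2 and 0.0259 for SRSF7. SRSF7 was also 0.000428 with DESeq2, 0.000331 with median-ratio size factors, 0.0182 with library size alone, 0.00117 with no filter, and 0.000880 and 0.000891 with limma at pseudocounts of 1 and 0.1. With a library left out, values ran from -0.0677 to 0.000101 for HNRNPA1L2, -0.0907 to 0.0388 for HNRNPH2, -0.0128 to 0.0345 for HNRNPUL2, -0.0150 to 0.0752 for SRSF3, -0.0244 to 0.0320 for SRSF7 and -0.0144 to 0.0836 for SRSF9. The family ratio changed sign without HNRNPA1P10, also added after seeing the data, from 0.513% to -0.141%, and ran from -0.224% without replicate 2 of untreated shControl to 1.33% without replicate 2 of HNE-treated shControl.

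Same-numbered replicates did not deviate together (r from -0.107 to 0.129 over 15 pairs of groups, 2 above 0.1), so the numbers were not taken as pairs. With the replicate number as a block 10 members were called over all treatments, and with HNE 3 in place of 4. With 2 libraries a group, a left-out library leaves 1 that is assumed to vary like the other groups. The lowest member averaged 19.2 CPM.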

Other observations

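HNRNPU-AS1, a noncoding gene named as antisense to HNRNPU, was singled out after its values were seen. It had 358 to 435 CPM in the 6 shControl and 305 to 338 CPM in the 6 shHuR libraries, without overlap. The shControl mean was 406 ± 28.0 CPM and the shHuR mean 321 ± 11.2 CPM, SD over 6 libraries each (log2 -0.34, SE 0.0403, adjusted p = 9.79e-06 in edgeR). HNRNPU itself had a log2 fold change of -0.03 (SE 0.0328, adjusted p = 0.544). Within treatments the HNRNPU-AS1 log2 fold change was -0.45 untreated (adjusted p = 0.00115), -0.27 with HNE (adjusted p = 0.0217) and -0.30 with H2O2 (adjusted p = 0.0133).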
